A study of Homo sapiens with 7 samples.

Results

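The expression state of untreated PC3 cells was described from the 3 No dox arrays among the 7 arrays of the study. The arrays were taken by their label, as untreated cells of replicates 2, 3 and 4, and no value of the doxycycline-treated arrays entered a level or a rank. PC3 is a human cell line of prostate cancer (PCa) that was derived from a metastasis in bone and, per the methods, was purchased from a cell repository. The cells profiled were PC3 TRIPZ-MITFA cells, which carry a lentiviral cassette that expresses MITFA, an isoform of the transcription factor MITF, when doxycycline is added. The 4 Dox arrays are the same cells with doxycycline. All 7 arrays therefore share the cassette, and parental PC3 cells without it were not profiled. An untreated replicate 1 was not analysed here. No source used here says whether the arrays came from separate cultures, so the spread between them may be technical, and their number limits the precision.

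Each gene was read on Illumina HumanHT-12 v4 BeadChips by 1 or more probes of fixed sequence, with a signal intensity in arbitrary units and a detection p-value, which compares a probe with the negative control probes of its array. A probe was called detected when its detection p-value was under 0.01 on all 3 arrays, and a gene when at least 1 of its probes was. Of 47323 probes, 14643 (30.9%) were detected on all 3 arrays, 3079 on 1 or 2 arrays and 29601 on none. The arrays had between 15562 and 16256 detected probes each, and their signals correlated between 0.9948 and 0.9957 on the log2 scale. The lowest signal that passed the limit was 92.6, 92.9 and 92.9 on replicates 2, 3 and 4, and the brightest probe reached 12655, 11328 and 11146. The SD between arrays over detected probes had a median of 0.0977 on the log2 scale (n = 3), with 0.129 in the dimmest 25% of probes and 0.0753 in the brightest 25%.

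The gene table named 11384 genes, of which 9517 (83.6%) were detected on all 3 arrays, 1251 on 1 or 2 arrays and 616 on none. This table covers only the 19337 probes that passed the limit on at least 1 of the 7 arrays, so a gene enters the class detected on no untreated array only through a Dox array. Of the probes detected on all 3 arrays, 2430 (16.6%) had no single gene name. A gene without a named probe can therefore not be called silent, and it is given below only as having no probe of its name in the gene table. Measured against RefSeq, 9226 of 20056 protein-coding genes (46.0%) were detected, and this share is the background for the gene lists as a whole. For the members that have a named probe, the background is the 83.6% of named genes. The lists hold genes known for a function or a cell type, so a share above or below these is a description of the list and was not tested.

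Detected genes were ranked by signal, with 1 the brightest, through the brightest detected probe of each gene. Probes differ in how well they bind, so a rank orders signal and not transcript number. In the 2264 genes with several detected probes, the brightest and the dimmest probe differed by a median of 1.32 on the log2 scale, and by over 3.59 in 10% of them. Of the 642 detected list members, 71 moved in rank by over 1.5 times when the median of a gene's detected probes replaced the brightest one, and where a gene named below became dimmer in this way its second rank is given as the probe median. The brightest 20 genes held 4.39% of the summed background-corrected signal, the brightest 100 held 15.5%, the brightest 500 held 40.5% and the brightest 1000 held 56.6%.

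The prostate epithelium has a secretory luminal layer, which depends on androgens, over a basal layer marked by the transcription factor p63 and by basal keratins, with rare neuroendocrine cells between them. PC3 is known as an androgen-independent line that has lost alpha-catenin. Carcinoma lines often carry epithelial and mesenchymal genes side by side. Glycolysis, respiration and lipid synthesis supply a proliferating cell with energy and membranes, and growth factor pathways set how these are used.

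CTNNA1, which encodes alpha-catenin, the link from cadherins to actin, gave signals of 85.3, 86.1 and 84.9, below the detection limit on every untreated array. Its probe entered the gene table only by passing the limit on a Dox array. The loss of alpha-catenin was therefore not tested here. No probe in the gene table carries the name KLK3 or KLK2, kallikreins of the luminal cell, so their absence from PC3 could not be addressed here.

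Among 90 genes of prostate and neuroendocrine identity and development, 37 had a named probe and 27 were detected on all 3 arrays, which is 30.0% of the list against 46.0% of protein-coding genes and 73.0% of the named members against 83.6% of named genes. FOXA1, a pioneer factor that opens chromatin in luminal cells, was the brightest luminal gene, with signals of 2300, 1958 and 2347 and rank 399. HOXB13, a homeobox factor of the posterior prostate, gave 401, 398 and 409 at rank 3050. For both genes the 3 arrays were close to each other and far above the detection limit.

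FKBP4, a cochaperone of steroid receptors, ranked 2405 and FKBP5, a textbook androgen and glucocorticoid target, ranked 4390. Most secreted and membrane products of luminal cells ranked on the dim side, missed the limit or had no named probe. STEAP1, a metalloreductase of the prostate cell surface, gave 279, 291 and 303 at rank 4010, the highest of 5 detected products among 18. SLC45A3 (prostein) ranked 6021 and SPDEF, an ETS factor of secretory epithelia, ranked 6074. ACP3, prostatic acid phosphatase, lay at the limit with 98.8, 96.0 and 93.1. KLK4, a kallikrein protease of the luminal cell, was below the limit on all 3 arrays with 92.1, 81.1 and 86.5, and TRPM8, a cold-activated channel of the prostate, passed it on 1 array. The luminal list thus ran from the brightest 10% of detected genes down to the limit.

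Of 14 basal genes, 4 were detected, and 9 had no named probe, among them TP63, KRT5 and KRT14. CD44, the hyaluronan receptor, gave 2297, 2174 and 2452 at rank 368 (probe median 1070). The other 3 detected basal genes, ITGB4, ITGA6 and KRT15, ranked 7527, 8786 and 8978. CD44 therefore stood apart from the rest of its list.

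Neuroendocrine genes were detected in 5 of 22 (22.7%), or 62.5% of those named, below the backgrounds of 46.0% and 83.6%. UCHL1, a neuronal ubiquitin hydrolase, gave 2194, 1973 and 2253 at rank 423, in the brightest 10% of all detected genes. FOXA2, a forkhead factor of endoderm, gave 175, 168 and 157 at rank 6155, and POU3F2, a neuronal POU factor, gave 117, 121 and 112 at rank 7896. ENO2, the neuronal enolase, gave 136, 126 and 134 at rank 7211. REST gave 108, 103 and 106 at rank 8594, and is counted among the 5 although it represses neuronal genes. INSM1, a neuroendocrine transcription factor, was detected on no array, and no probe carries the name CHGA or SYP. Among developmental transcription factors, 8 of 25 (32.0%) were detected, or 72.7% of those named, also below both backgrounds. ETV5, an ETS factor downstream of growth factor signalling, led them at rank 1839 (probe median 3242), before SOX9 at 3006 and SOX4 at 3299. KLF5, an epithelial Krüppel-like factor, and FLI1, an ETS factor of blood and endothelium, were detected on no array, with KLF5 close to the limit at 92.5, 88.2 and 90.5.

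**Figure D1:**
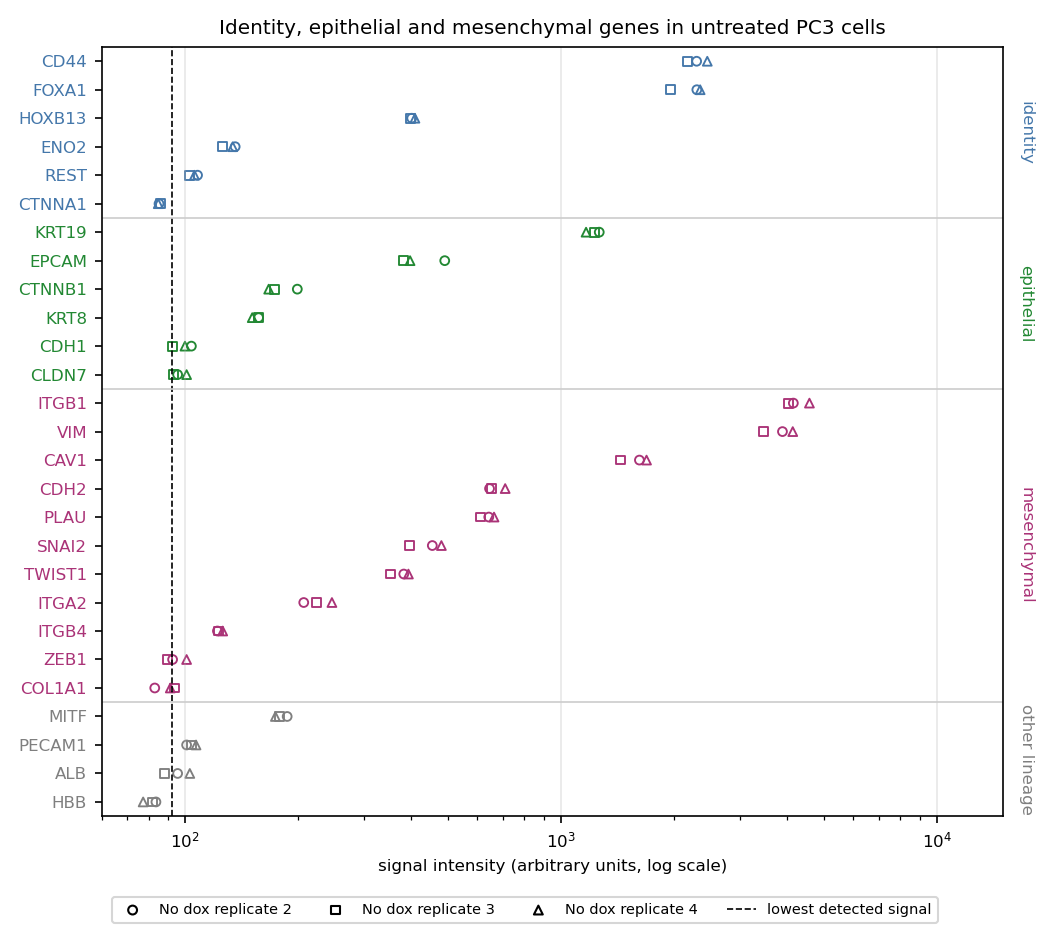
Signal intensity (log axis, arbitrary units) of identity, epithelial, mesenchymal and other lineage genes on No dox replicates 2, 3 and 4, 1 marker per array, for every gene of the key list that has a named probe. The dashed line is the lowest detected signal, 92.6; VIM and ITGB1 lie between 3453 and 4584, while CTNNA1 and HBB lie below the line.

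Epithelial and mesenchymal genes were detected side by side. Of 76 epithelial genes, 35 (46.1%) were detected, or 76.1% of those named, with a median rank of 5512. Of 93 mesenchymal genes, 51 (54.8%) were detected, or 82.3% of those named, with a median rank of 3188. The backgrounds are 46.0% of protein-coding genes and 83.6% of named genes. The epithelial share was thus at the first background, and the share over all mesenchymal lists was above it. Both shares of named members were below the second. The middle of all detected genes is rank 4759, so the detected epithelial genes lay on the dim side of it and the detected mesenchymal genes on the bright side.

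Keratins form the intermediate filaments of epithelia. KRT19, a simple epithelial keratin, gave 1265, 1229 and 1167 at rank 912. KRT8, its partner keratin of simple epithelia, gave only 157, 157 and 151 through its 1 named probe, at rank 6455. No probe carries the name KRT18 or KRT7, and KRT20 passed the limit on 1 or 2 arrays only. Among 12 stratified and hair keratins, 3 were detected, with KRT10, the keratin of differentiating epidermis, at rank 1529, KRT75 at 6105 and KRT80 at 8111.

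Cell junctions were the best covered epithelial list, with 19 of 30 genes (63.3%) detected. E-cadherin (CDH1), the adhesion molecule that defines epithelia, lay at the limit with 104, 92.5 and 100, passing on 2 of 3 arrays. P-cadherin (CDH3) gave 267, 231 and 263 at rank 4510. The adherens junction plaque proteins CTNNB1 (beta-catenin) and JUP (plakoglobin) ranked 5843 and 7138. The 1 named probe of E-cadherin was thus next to the background, while the 1 named probe of P-cadherin was above it on every array. Probes differ in how well they bind, so this does not compare the transcript numbers of the 2 genes.

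Desmosomes, which couple keratin filaments between cells, had 9 of 10 genes detected. DSG2, the desmoglein of simple epithelia, was the brightest with 985, 869 and 846 at rank 1323 (probe median 3518), followed by the plakophilin PKP1 at 2048, DSC3 at 2436 (probe median 4706) and DSC2 at 3177. DSG3, the desmoglein of stratified epithelia, was below the limit on all untreated arrays with 78.6, 90.6 and 83.9. Of 12 tight junction genes, 5 were detected. TJP1 (ZO-1), the scaffold that also sits at other junctions, led at rank 2671, while the claudins CLDN1, CLDN3 and CLDN7 ranked 6358, 6413 and 9371. CLDN4 and MARVELD2 (tricellulin) were detected on no array.

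Several epithelial surface proteins reached higher ranks than the claudins. MAL2, a protein of apical transport, gave 1962, 1934 and 2053 at rank 480, CD24 gave 1763, 1729 and 1859 at rank 564 (probe median 2221), and the protease inhibitor SPINT2 ranked 817. EPCAM, the epithelial cell adhesion molecule, gave 491, 382 and 397 at rank 2945. MUC1, an epithelial mucin, ranked 6971 and CDS1 7799, both dimmer than CLDN1 and CLDN3, and LAD1 passed the limit on 1 array. Of 7 polarity genes, 3 were detected, with SCRIB at 2050, and PATJ on no array. KLF4 ranked 2476 among the splicing and transcription genes, GRHL1 was detected on no array, and no probe carries the name ESRP1 or GRHL2.

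The mesenchymal structure list was the most completely detected mesenchymal list, with 13 of 18 genes detected (72.2%). All of its named members were detected, against 83.6% of all named genes. Vimentin (VIM), the intermediate filament of mesenchymal cells, gave 3886, 3453 and 4139 at rank 145. FSCN1 (fascin), which bundles actin in protrusions, gave 4979, 4740 and 4949 at rank 84, and S100A4, a calcium-binding protein of motile cells, ranked 167 (probe median 527). All 3 were in the brightest 10% of detected genes on these arrays.

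Moesin (MSN), which ties actin to the membrane, ranked 390 and CAV1 (caveolin-1) ranked 668 (probe median 1906). Among cadherins of mesenchymal cells, CDH11 (cadherin-11, of osteoblasts and stroma) gave 1279, 1120 and 1173 at rank 942. N-cadherin (CDH2) gave 646, 653 and 711 at rank 1844. Both were above the limit on each of the 3 arrays. At the dim end, TPM2 ranked 5860, the receptor kinase AXL 6587 and the ectonucleotidase NT5E 7152.

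Of 12 transcription factors that drive epithelial-mesenchymal transition, 4 (33.3%) were detected, or 57.1% of those named, below the backgrounds of 46.0% and 83.6%. SNAI2 (Slug) gave 455, 396 and 481 at rank 2820 and TWIST1 gave 382, 352 and 393 at rank 3225. ZEB1 lay at the limit with 92.7, 90.0 and 101, passing on 2 of 3 arrays, and ZEB2 was below it on each with 89.9, 84.6 and 86.3. The detected factors were thus of the Snail, Twist and E-protein families, while the ZEB probes were at background or next to it.

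In the extracellular matrix list, 26 of 44 genes (59.1%) were detected, or 86.7% of those named, near the 83.6% of all named genes. No named member was below the limit on all 3 untreated arrays, a class that holds only 616 of the 11384 named genes. TIMP1, the inhibitor of metalloproteinases, gave 3592, 3395 and 3805 at rank 163, SERPINE2, a protease inhibitor, ranked 309 and TIMP2 728 (probe median 2716). The laminin chain LAMA5 gave 1706, 1850 and 1921 at rank 546, and the glycoprotein TNC (tenascin-C) ranked 1198. Urokinase (PLAU), which activates plasminogen, gave 643, 610 and 664 at rank 1958, and its receptor PLAUR ranked 5487. COL1A1, a bone and stromal collagen counted with the bone list, was at background, with 83.1, 93.8 and 91.4 and 1 array past the limit. No probe carries the name FN1.

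Of 19 integrin subunits, 8 (42.1%) were detected, or 66.7% of those named, below the backgrounds of 46.0% and 83.6%. ITGB1, the beta subunit common to most matrix receptors, gave 4154, 4031 and 4584 at rank 116 (probe median 240). ITGB5 ranked 1312, ITGAV 2268 and ITGA3 2896, and the collagen receptor subunit ITGA2 gave 207, 224 and 246 at rank 4957. ITGA7, the laminin receptor subunit of muscle, was detected on no array. The 5 detected alpha subunits of this list spread from rank 2268 to 9211. The integrin subunits ITGA6 and ITGB4, also detected, are counted with the basal genes above.

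**Figure D2:**
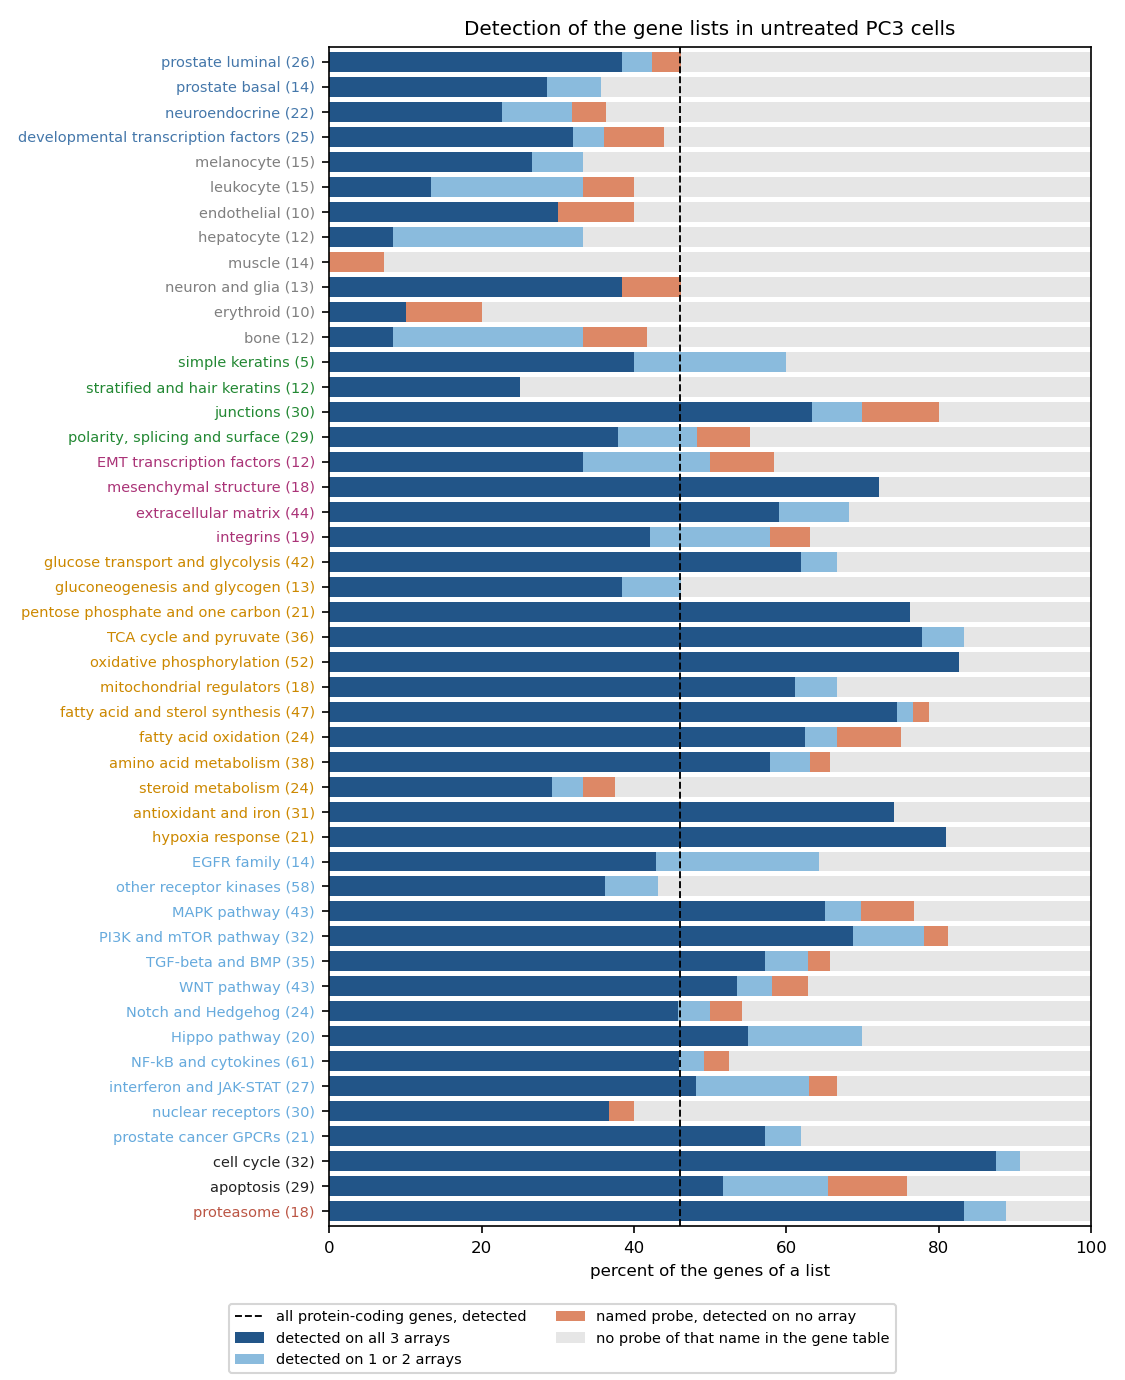
Share of each gene list (horizontal axis, percent; number of genes in parentheses) detected on all 3 arrays, detected on 1 or 2, detected on none, or without a probe of that name in the gene table. The dashed line marks the 46.0% of protein-coding genes detected; oxidative phosphorylation, the hypoxia response, the proteasome and the cell cycle lie above 80%, while the hepatocyte, bone, erythroid and muscle lists lie at or below 10%.

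Metabolic genes were widely detected. Of 367 genes, 248 (67.6%, or 93.9% of those named) were detected on all 3 arrays, 11 on 1 or 2 and 5 on none, and the median rank of those detected was 1939. The proteasome, taken as a reference complex that every cell needs, had 15 of 18 genes detected (83.3%) with a median rank of 357.

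The metabolic list with the brightest median rank was oxidative phosphorylation, with 43 of 52 genes detected, every named member among them, at a median rank of 496. ATP5F1B, the beta subunit of ATP synthase, was the brightest gene of the arrays with 12655, 10868 and 10895. All 12 complex V genes, 14 of 16 of complex I, 7 of 9 of complex III with cytochrome c and 10 of 15 of complex IV were detected. COX4I1 of complex IV ranked 38, CYC1 of complex III ranked 69 and NDUFB5 of complex I ranked 139. In all, 27 members lay in the brightest 10% of detected genes. The 5 complex IV genes without a named probe (COX4I2, COX6A2, COX6B2, COX7A1 and COX8C) are known as isoforms of particular tissues.

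Glycolysis was detected in 20 of 29 enzyme genes. LDHA, which turns pyruvate into lactate, gave 9665, 7583 and 8875 at rank 16, and ENO1, the enolase of most tissues, gave 8379, 7880 and 8299 at rank 25. GAPDH ranked 108 (probe median 177), HK1 168, ALDOA 285 (probe median 796) and PGK1 341. Pyruvate kinase (PKM) gave 2336, 2190 and 2374 at rank 370 (probe median 995). HK2, the hexokinase often raised in cancer, gave 482, 521 and 497 at rank 2479 (probe median 3920). The glucose transporter SLC2A1 (GLUT1) gave 227, 276 and 265 at rank 4473. Of the 8 enzyme genes with no named probe, PGK2, GAPDHS and PGAM2 are known from testis or muscle.

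In the TCA cycle list, 28 of 36 genes were detected. MDH2, mitochondrial malate dehydrogenase, gave 5464, 6430 and 6078 at rank 53, and citrate synthase (CS) gave 3715, 3408 and 3711 at rank 164. MDH1 ranked 367, PDHB 511 and the citrate lyase ACLY 665 (probe median 999), which feeds citrate into lipid synthesis. IDH2 (8197) and PDK4 (8403), a kinase that restrains pyruvate dehydrogenase, were the dimmest.

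Lipid synthesis was led by FASN, the fatty acid synthase known to be raised in PCa, with 5640, 4598 and 4680 at rank 80. The desaturase SCD gave 2558, 2192 and 2339 at rank 349. In the sterol branch, 20 of 27 genes were detected, with SQLE, the squalene epoxidase, at rank 738 (probe median 1197), SC5D at 833 and HMGCS1 at 1626. SREBF1, the regulator of fatty acid synthesis, ranked 4601, and SREBF2, the regulator of sterol synthesis, was below the limit with 88.2, 86.5 and 89.6 through its 1 named probe. Enzymes of the sterol branch were thus detected while the named SREBF2 probe was at background. Of 24 fatty acid oxidation genes, 15 were detected, with the lipid carrier FABP5 at rank 268 (probe median 1419) and CPT1A, the gate of mitochondrial import, at 6599. FABP1 and FABP4, carriers of liver and fat, were detected on no array.

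Serine synthesis and the pentose phosphate path stood high as well, with 16 of 21 genes detected. PHGDH, the first enzyme of serine synthesis, gave 4058, 3447 and 3536 at rank 156, followed by TKT (354), TALDO1 (463), SHMT2 (549) and PSAT1 (602). In amino acid metabolism, ODC1, the gate of polyamine synthesis, ranked 197, GOT2 221 and SMS 237. The leucine transporter SLC7A5 ranked 1002 and the cystine transporter SLC7A11 gave 108, 108 and 112 at rank 8338, close to the limit.

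All 23 named antioxidant and iron genes, of 31, were detected. TFRC, the transferrin receptor that brings iron in, gave 8635, 7634 and 7801 at rank 30, and the ferritin light chain FTL gave 2914, 2712 and 2959 at rank 247. PRDX1 ranked 66, SOD1 127 and TXN 130. GSTP1, a glutathione transferase whose promoter is known to be methylated in most prostate tumours, was bright in these cells with 2312, 2278 and 2498 at rank 352. NQO1, a target of the antioxidant factor NRF2, gave 1135, 1033 and 1276 at rank 988.

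Steroid metabolism was the least detected metabolic list, with 7 of 24 genes (29.2%), or 77.8% of those named. AKR1C3, which makes testosterone from its precursor, gave 228, 224 and 295 at rank 4607, and the 5-alpha reductase SRD5A1 gave 179, 177 and 172 at rank 5921. CYP19A1 (aromatase) was detected on no array. HSD17B4 (1688) and HSD17B10 (2624), which also serve fatty acid oxidation, were the brightest of the list. Members of the AKR1C family are near-identical in sequence, so a probe may read more than one of them.

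The hypoxia list had 17 of 21 genes detected, at a median rank of 4127. P4HA1 (1030), NDRG1 (1042) and BNIP3 (1166) led its targets, HIF1A ranked 2396 and VEGFA 8434. Among mitochondrial regulators, PPARG, the nuclear receptor of fat cells, gave 1519, 1476 and 1612 at rank 689 (probe median 1054), TFAM ranked 1220, and PPARGC1B, a relative of the coactivator PGC1α, gave 117, 143 and 142 at rank 7167. No probe carries the name PPARGC1A.

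**Figure D3:**
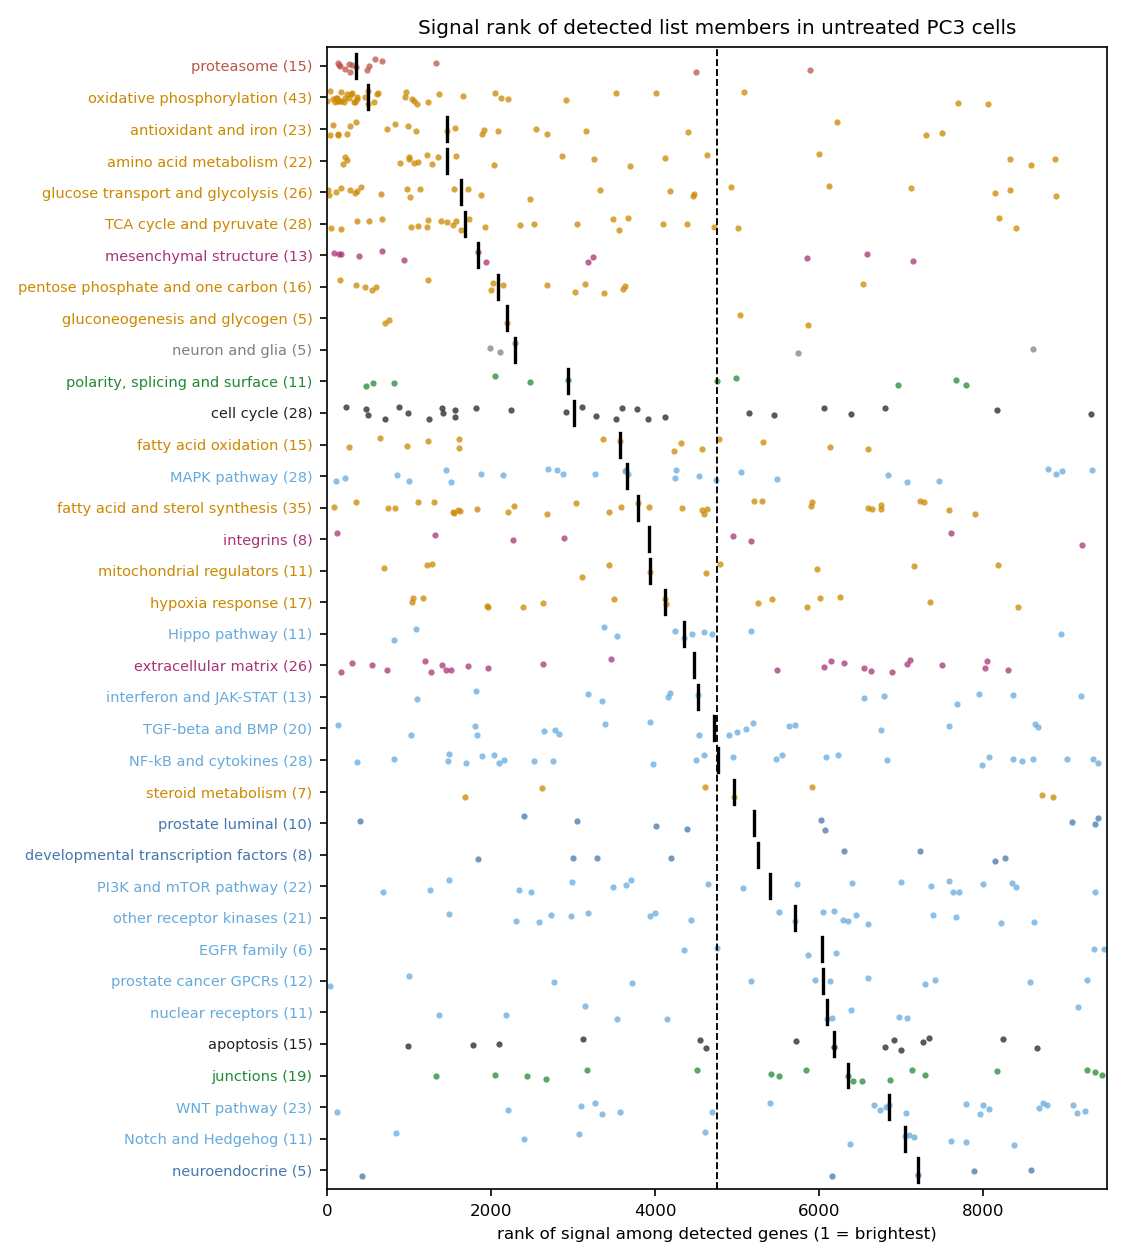
Rank of signal among the 9517 detected genes (horizontal axis, 1 = brightest) for each detected member (1 point) of the lists with at least 5 detected members, with their number in parentheses. Black bars are list medians and the dashed line is rank 4759, the middle of all detected genes; the proteasome (357) and oxidative phosphorylation (496) lie farthest to the bright side and the neuroendocrine list (7211) farthest to the dim side.

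Signalling genes were detected in 206 of 408 cases (50.5%), or 84.1% of those named, near both backgrounds, with a median rank of 5027. Of the 206, only 11 were in the brightest 10% of detected genes, namely F2R, JUND, DKK1, FST, MYC, IL18, RHEB, TNFRSF21, TEAD2, HEY1 and PTPN11. By the probe median, DKK1 and HEY1 leave this group.

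Of the EGFR family, EGFR gave 261, 258 and 270 at rank 4357 and ERBB2 gave 192, 179 and 165 at rank 5867. ERBB3 passed the limit on 1 or 2 arrays only. The ligands HBEGF and TGFA ranked 4759 and 6205, with TGFA at 161, 155 and 178, and no probe carries the name AREG. Among 35 other receptor kinases, 11 were detected, with MET, the receptor of hepatocyte growth factor, at 496, 431 and 506 and rank 2585. EPHA2 ranked 3184, ROR1 3997 and EPHB4 4437. Their ligands included VEGFB at rank 1481 (probe median 3384) and VEGFC at 2308. No receptor kinase of these lists was in the brightest 10% of detected genes.

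In the MAPK pathway, 28 of 43 genes (65.1%) were detected, or 84.8% of those named. MYC, the growth-promoting transcription factor, gave 3433, 2888 and 3099 at rank 216 (probe median 400). JUND ranked 107 with 4839, 3907 and 4378. The feedback inhibitors SPRY1 (1005) and SPRED1 (1507) and the immediate early gene IER3 (1454) followed, with FOSL1 at 1877 and DUSP6 at 2697 (probe median 4877). FOS and EGR1, the classical immediate early genes of serum stimulation, were detected on no array, with signals of 86.9, 82.5 and 88.4 for FOS and 87.5, 92.2 and 90.1 for EGR1. The AP-1 partners detected were thus JUND, FOSL1, JUN (2874), JUNB (8894) and FOSL2 (8964), and not FOS.

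The PI3K and mTOR list had 22 of 32 genes (68.8%) detected, or 84.6% of those named, at a median rank of 5406. RHEB, the GTPase that activates mTOR, gave 1726, 1422 and 1564 at rank 680. AKT1 gave 943, 873 and 1003 at rank 1260, RPS6KB2 ranked 1482 (probe median 3997) and MTOR 3652. PIK3CB, a catalytic subunit of PI3K, gave 210, 231 and 216 at rank 5079, and no probe carries the name PIK3CA. PIK3R1, the regulatory subunit, passed the limit on 2 arrays with 90.7, 93.5 and 111, and PIK3CG, of leukocytes, on none.

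In the WNT pathway, 23 of 43 genes (53.5%) were detected, or 85.2% of those named, at a median rank of 6860. DKK1, a secreted WNT inhibitor known in bone metastasis, had the highest rank with 4345, 3870 and 4420 at rank 120 (probe median 2277). The next were GSK3B at 2207, LRP5 at 3092 and DVL3 at 3267. WNT ligands were dim, with WNT5A at 6675 and WNT10B at 8004, and WNT5B and SFRP1 were detected on no array. Under a detection limit of 0.001, 15 WNT genes were detected.

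TGF-beta and BMP genes were detected in 20 of 35 cases (57.1%), or 87.0% of those named. Their brightest member was also a secreted inhibitor, FST (follistatin), which binds activin, with 4158, 3851 and 3918 at rank 135 (probe median 509). ID1, a BMP target, ranked 1019 (probe median 3848) and GDF15 gave 698, 635 and 699 at rank 1825. TGFBR2 (2644), SMAD4 (2778) and SMAD3 (3388) were detected. TGFB2 was below the limit on every untreated array with 91.5, 88.7 and 85.1.

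Of the Notch genes, 10 of 14 were detected, with the target HEY1 at rank 839 (probe median 2115) and signals of 1431, 1202 and 1306, while the ligand JAG1 gave 114, 103 and 110 at rank 8385. Of 10 Hedgehog genes only GLI3 was detected, at rank 6384, GLI2 was detected on no array and 7 had no named probe. In the Hippo pathway, TEAD2 ranked 816, STK4 1089, the target CCN2 3374, YAP1 4354 and the target CCN1 4697, the last with 251, 225 and 245.

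Among cytokines, IL18 gave 2312, 2270 and 2443 at rank 359. IL10, a cytokine of immune cells, gave 265, 297 and 321 at rank 3982, and CXCL8, a neutrophil chemokine, gave 238, 238 and 288 at rank 4505. IL11 was detected on no array, and no probe carries the name IL6 or CXCL1. All 8 named NF-kB genes were detected, from NFKB1 at 1486 to NFKB2 at 9404. TNFRSF21 (811) and TNFRSF12A (1478) led the receptors.

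In the interferon and JAK-STAT list, 13 of 27 genes (48.1%) were detected, or 72.2% of those named. Among them, TYK2 ranked 1099, IFNGR2 1815 and JAK1 4162. STAT3 was at background through its 1 named probe, with 92.9, 82.7 and 79.8, past the limit on 1 array. SOCS3, its target, passed the limit on none with 79.9, 83.7 and 85.4. The 5 interferons of the list had no named probe. The shared receptor chain IL6ST, known to act upstream of STAT3, ranked 1884.

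Nuclear receptors were detected in 11 of 30 cases (36.7%), with 18 without a named probe, and in 91.7% of the 12 named, so their share was below the first background and above the second. NR2F1 gave 908, 812 and 932 at rank 1361 and NR2F6 ranked 2182. The vitamin D receptor VDR gave 159, 169 and 181 at rank 6098. The glucocorticoid receptor NR3C1 was at the limit through its 1 named probe, with 104, 99.2 and 94.2 at rank 9166. RORA was detected on no array, and no probe carries the name ESR1.

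F2R, the thrombin receptor PAR1, was the brightest signalling gene and ranked 35 (probe median 534) with 7794, 7418 and 7654. LPAR1, a receptor of lysophosphatidic acid, gave 1166, 1002 and 1225 at rank 1004 (probe median 3187), and the gastrin-releasing peptide receptor GRPR ranked 3724. The other 9 detected G protein-coupled receptors of the list ranked from 2774 to 9275.

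Cell cycle genes had the highest detected share of a whole list, 28 of 32 (87.5%). Of the named members 96.6% were detected, below the 100% of oxidative phosphorylation and some other lists. CCND1 (cyclin D1) gave 2749, 2821 and 3336 at rank 233. The replication helicase MCM7 ranked 477 (probe median 2725), CDK4 501, BIRC5 (survivin) 701 (probe median 2839), TOP2A 880 and CDK1 1565 (probe median 3056). MKI67, the proliferation marker, gave only 119, 107 and 111 through its 1 named probe, at rank 8173, so the markers of proliferation spread over most of the range of ranks. The inhibitors CDKN2A and CDKN1A gave 351, 294 and 348 and 281, 318 and 339, at ranks 3600 and 3779.

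Of 29 apoptosis genes, 15 (51.7%) were detected, or 68.2% of those named, against backgrounds of 46.0% and 83.6%. CASP2 ranked 982 (probe median 1977) and the survival protein BCL2L1 gave 646, 689 and 758 at rank 1776, while BCL2 gave 150, 134 and 146 at rank 6806. CASP1, CASP10 and HRK were detected on no array.

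**Figure D4:**
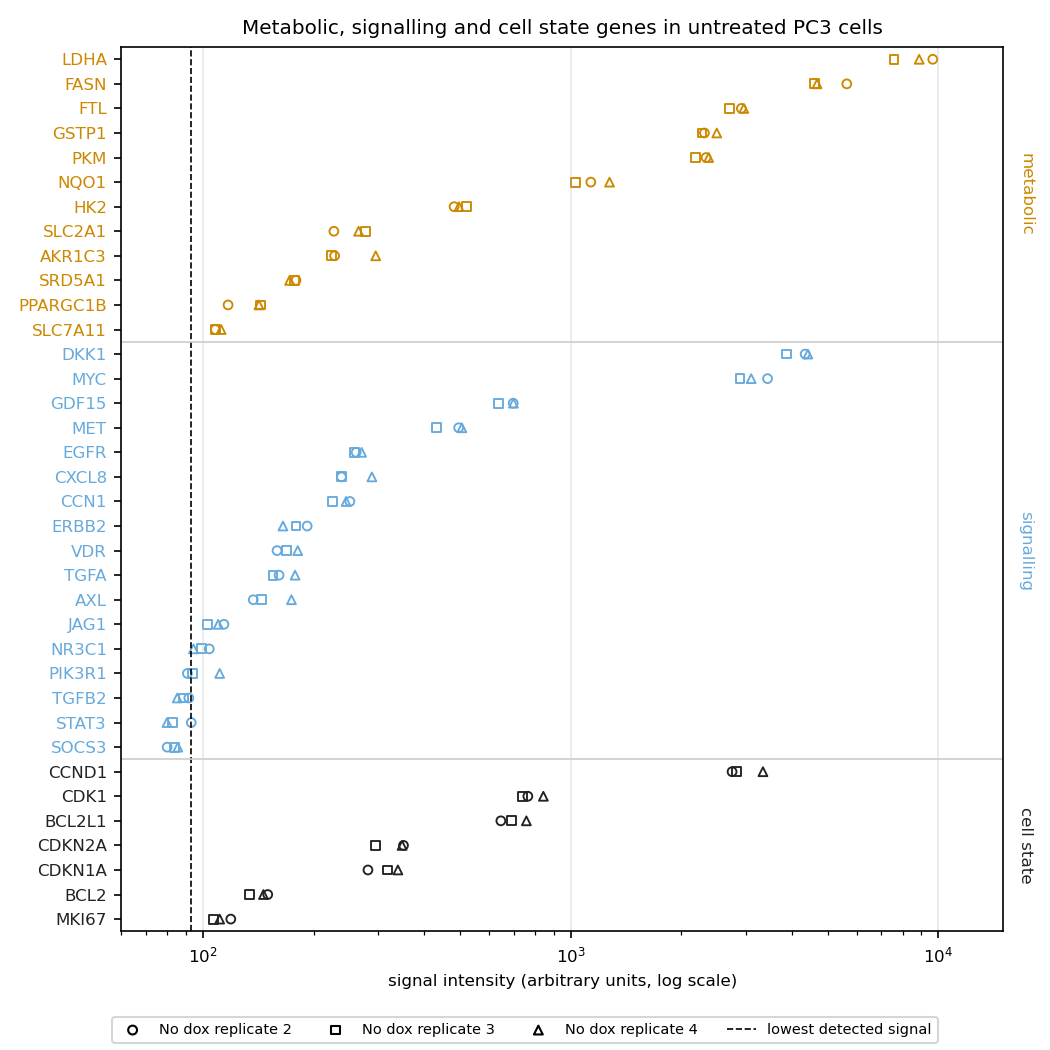
Signal intensity (log axis, arbitrary units) of metabolic, signalling and cell state genes on No dox replicates 2, 3 and 4, 1 marker per array, for every gene of the key list that has a named probe. The dashed line is the lowest detected signal, 92.6; LDHA lies between 7583 and 9665, and SOCS3 lies below the line on each array.

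Genes of other lineages were set beside the label of the cells. Of 101 such genes, 68 had no named probe and so no value. Of the 33 named, 17 (51.5%) were detected on all 3 arrays against 83.6% of all named genes, 10 on 1 or 2 arrays and 6 on none. The median rank of those detected was 8496, and none was in the brightest 10%. The beta-globin gene HBB gave 83.7, 81.8 and 77.4, the smooth muscle actin ACTA2 88.8, 85.8 and 82.0, and both were detected on no array. Albumin (ALB) was at the limit with 95.6, 88.0 and 103. PECAM1 of endothelium gave 101, 104 and 107 and was detected on all 3 arrays at rank 8746, as were ESAM (8760) and KDR (9313). Of 5 named melanocyte genes, 4 were detected, MITF (5824), MC1R (6906), RAB27A (8496) and OCA2 (9430). No probe carries the name PTPRC, TYR, MLANA or SOX10. Under a detection limit of 0.001 the endothelial, hepatocyte and bone lists had 0 detected genes each. With at least 1 array past 0.01, the hepatocyte and bone lists had 4 each in place of 1, and without replicate 3 they had 2 and 3.

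MITF gave 187, 178 and 174 at rank 5824. The sources used here do not say whether its 1 named probe reads the cassette, so transcripts of the endogenous gene and of the uninduced cassette cannot be told apart. The neuronal and glial list was the exception to the low ranks, with MBP (1993, probe median 7719), NEFL (2104) and TH (2295) on the bright side of the middle. TH, tyrosine hydroxylase of catecholamine neurons, gave 518, 512 and 595, and MBP, myelin basic protein, gave 651, 652 and 579. Also, CD68, a lysosomal protein of macrophages and other cells, ranked 3524, and EPOR, the erythropoietin receptor, 4486.

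Gene families set the frame for these lists. Of 86 ribosomal protein genes, 71 were detected at a median rank of 248, and they held 5.87% of the summed signal. Mitochondrial ribosomal proteins were detected in 75 of 76 cases at a median rank of 1909. ZNF zinc finger genes were detected in 250 of 509 cases (49.1%) at a median rank of 6798. Of 390 olfactory receptor genes, which most cells do not express, 17 had a named probe. Of these, 3 were detected (0.769% of the 390), at ranks from 7842 to 9350. Of 94 keratin-associated proteins, 4 had a named probe and 1 was detected. Members of both families without a named probe have no value, so these shares do not show silence. The 20 brightest genes were ATP5F1B, EEF1A1, TMSB4X, RPL41, RPL6, LAIR1, TPT1, RPLP2, HSP90AA1, RPS29, CLUAP1, RPL38, TUBA1A, RPL13AP20, RPS19, LDHA, ACTB, RPS10, RPL32 and RPL18. They encode mostly ribosomal and cytoskeletal proteins, and the pseudogene RPL13AP20 is near-identical to its parent RPL13A, so its probe may read both. By the probe median, 11 of these 20 stay among the brightest 20, and RPL32 moves to rank 1342, TPT1 to 125, TUBA1A to 91, RPS29 to 89 and CLUAP1 to 5913.

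The genes that differed most between the untreated arrays were mostly dim. PXDN, a matrix peroxidase, had the largest SD, 0.71 on the log2 scale, with signals of 108, 170 and 128. TGDS (156, 109 and 155) and NUP43 (154, 113 and 112) followed with SDs of 0.55 and 0.53, and then ZNF79, HINT3 and DCAF11. IFI27, an interferon-induced gene, gave 161, 226 and 221 with an SD of 0.45, lower on replicate 2 than on the others. BBS2, NBPF9 and SNORA41 had SDs of 0.43, 0.42 and 0.41. Only 8 detected probes had an SD over 0.5.

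Promoter sequence was set beside detection, since promoters rich in CpG dinucleotides are known for genes that most cells use, and TATA boxes for genes of restricted expression. RefSeq promoters (GRCh38.p14, 250 bases before to 50 after the annotated start) were at hand for 15843 protein-coding genes, of which 7789 were detected. The annotated start may not be the one these cells use. A CpG observed to expected ratio over 0.6 was found in 86.1% of promoters of detected genes, in 91.6% for the brightest 10% and in 76.9% for the dimmest 10%. The share was 66.2% for genes detected on 1 or 2 arrays, 54.7% for those detected on none and 65.7% over all 15843. Genes detected on none entered the gene table only through a Dox array, so they do not stand for silent genes. Among 6753 genes with no named probe, which include expressed genes, it was 42.8%.

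Motifs were searched as exact letters on both strands of the 300 bases, and matches of different motifs may share bases. The ETS motif CCGGAAG was in 20.5% of promoters of detected genes, 8.63% of those detected on no array and 14.2% of all. TATAAA was in 5.25%, 10.6% and 9.63% of the same groups, CCAAT in 37.9%, 35.0% and 36.4%, the GC box GGGCGG in 71.7%, 53.7% and 58.5%, the E-box CACGTG in 10.7%, 5.28% and 8.88% and the AP-1 motif TGACTCA in 2.80%, 4.80% and 3.66%. A match is a description and not a binding site. The classes were ordered from detected genes through those detected on 1 or 2 arrays to those detected on none. Along this order the shares fell for CpG content, the ETS motif, the GC box and the E-box. They rose for TATAAA and the AP-1 motif, and kept no order for CCAAT. Since the last class entered only through a Dox array, the order does not run from expressed to silent genes. Among the lists, CpG-rich promoters were in 88.1% of 219 detected metabolic genes, 82.4% of 165 detected signalling genes, 65.0% of 40 detected mesenchymal genes and 68.2% of 22 detected epithelial genes.

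**Figure D5:**
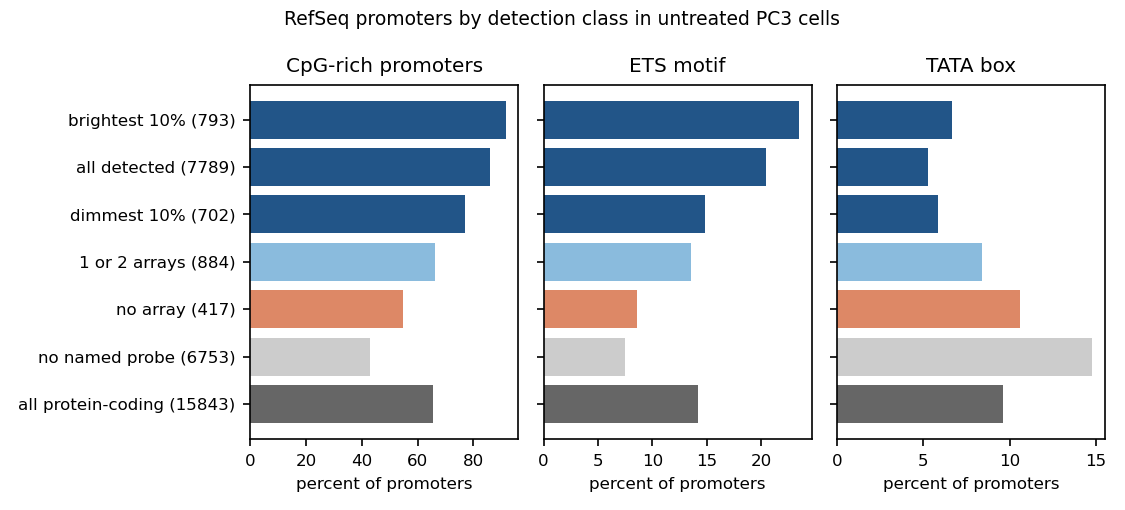
Percent of RefSeq promoters (300 bases) with a CpG observed to expected ratio over 0.6, with the ETS motif and with TATAAA, by detection class of the gene on the 3 No dox arrays, with the number of promoters in parentheses. Bars start at 0. CpG-rich promoters fall from 91.6% in the brightest 10% of detected genes to 54.7% in genes detected on no array, which entered only through a Dox array.

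The following 4 promoters are shown because they span these patterns, and they were chosen after their values were seen. FOXA1 (chr14:37595200-37595499, minus strand) and TMSB4X (chrX:12974860-12975159, plus strand) are bright genes with 34 and 27 CpGs in the window, at ratios of 0.966 and 0.96. KLK4 (chr19:50910689-50910988, minus strand) was detected on no array and has 3, at a ratio of 0.144. DKK1 (chr10:52314031-52314330, plus strand), bright by 1 of its probes, has a TATAAA match that begins 30 bases before the start. Capitals mark CpG dinucleotides in the first 3 and the TATAAA match in DKK1, and each is given from 5′ to 3′ along the gene's strand.
FOXA1: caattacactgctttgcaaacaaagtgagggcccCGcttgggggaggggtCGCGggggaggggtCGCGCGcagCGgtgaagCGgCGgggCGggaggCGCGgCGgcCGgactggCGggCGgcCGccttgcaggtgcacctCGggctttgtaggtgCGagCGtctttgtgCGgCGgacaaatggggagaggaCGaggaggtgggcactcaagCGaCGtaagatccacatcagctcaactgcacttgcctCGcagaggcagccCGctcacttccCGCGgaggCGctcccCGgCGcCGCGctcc
TMSB4X: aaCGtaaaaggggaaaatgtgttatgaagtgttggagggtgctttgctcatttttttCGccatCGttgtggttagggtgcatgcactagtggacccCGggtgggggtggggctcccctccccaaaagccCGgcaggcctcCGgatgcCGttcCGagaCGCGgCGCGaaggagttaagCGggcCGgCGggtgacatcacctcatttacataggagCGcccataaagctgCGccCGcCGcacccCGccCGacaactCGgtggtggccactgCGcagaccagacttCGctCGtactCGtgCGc
KLK4: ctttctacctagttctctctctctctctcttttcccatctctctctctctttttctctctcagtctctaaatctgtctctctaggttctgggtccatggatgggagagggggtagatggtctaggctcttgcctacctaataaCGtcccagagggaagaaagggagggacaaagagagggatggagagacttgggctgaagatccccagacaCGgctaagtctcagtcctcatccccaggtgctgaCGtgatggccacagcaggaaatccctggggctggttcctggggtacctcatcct
DKK1: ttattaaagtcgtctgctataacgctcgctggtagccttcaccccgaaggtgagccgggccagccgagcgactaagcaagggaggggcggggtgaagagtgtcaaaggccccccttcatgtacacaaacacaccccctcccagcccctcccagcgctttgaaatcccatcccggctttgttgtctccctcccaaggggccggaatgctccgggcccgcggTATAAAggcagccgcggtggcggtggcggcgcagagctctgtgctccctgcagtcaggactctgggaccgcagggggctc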

How the data were processed

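Arrays were Illumina HumanHT-12 v4 BeadChips, 3 of untreated PC3 TRIPZ-MITFA cells. The authors deposited a GenomeStudio sample probe profile with a signal intensity per probe and array, not normalized, and a detection p-value. They also deposited log2 values of 19337 probes, which per the paper were background-corrected, transformed and quantile-normalized with lumi; these served as an alternative. Signals printed are the deposited intensities. For ranks and SDs, background was corrected with neqc of limma 3.58.1 (R 4.3.3), which estimated the negative controls through the detection p-values, with an offset of 16 and quantile normalization over the 3 arrays, which replaced lumi. The script was tested on simulated data. Names came from the platform annotation, for 15060 probes, updated to RefSeq symbols (15051 by gene identifier, 2 by symbol and 7 by an older symbol), and 2 probes with several names were left out. Named were a fixed set of key genes, the 20 brightest genes, the 10 of largest SD, and in each list up to 4 of the highest rank and those detected on no array, with a few others named for their function after their values were seen. Members and lists were chosen with earlier results of these data known. No test was run, since 1 group was described. Alternatives covered the detection limit, the number of arrays, the background correction, the normalization, the probes of a gene and each array left out.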

Additional observations from a re-analysis of the deposited data

How the results depend on the processing

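The count of 9517 detected genes lay between 8147 and 10768 under a detection limit of 0.001 or 0.05, detection on at least 1 or 2 arrays, and other rules for genes with several probes, and between 9638 and 9761 with 1 array left out. The count of genes detected on no array depended on the limit, with 258 at a detection p-value of 0.05 and 2566 at 0.001 against 616, and on the number of arrays, with 772 to 932 when 1 was left out, the last without replicate 2. These shifts follow from a looser or stricter limit and from fewer arrays. The median SD between arrays ranged from 0.0609 (no background correction) to 0.113 (no quantile normalization), and from 0.0749 to 0.0825 with an array left out. Of 336 comparisons of list counts, 15 moved by over 1.5 times, in the basal, melanocyte, leukocyte, endothelial, hepatocyte, bone and WNT lists. Ranks moved by a median of at most 2 under other scalings, 44 to 48 with an array left out, and 337 with the median of a gene's probes in place of the brightest one. That last choice moved 51 of 82 ranks of named genes by more than their spread over arrays. Genes near the limit of about 92 units cannot be ordered, and a gene without a named probe has no value here. No paired analysis was possible because 1 group was described.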

Other observations

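Several bright genes are known from other cell types. LAIR1, an inhibitory receptor of leukocytes, ranked 6 with signals of 9814, 9880 and 10236 through its 1 probe. CLEC2D, a lectin-like ligand of natural killer cell receptors, ranked 26 with 7861, 7920 and 8648 and CCR6, a chemokine receptor of lymphocytes, ranked 198 with 3139, 3329 and 3480. The leukocyte list had 2 of 15 genes detected, CD68 at 343, 322 and 352 and CD79A at rank 9282, and MS4A1 was detected on no array. CLUAP1, a protein of cilia, ranked 11 through the brightest of 5 detected probes, and 5913 by their median. These genes were chosen after their values were seen, and what their probes bind was not tested.

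Of the 9517 detected genes, 9226 were protein-coding. The others included 93 long noncoding RNAs, 119 transcribed pseudogenes, 48 small nucleolar RNAs, 9 small nuclear RNAs and 8 microRNA genes. Of the 11384 genes that the gene table named, 10840 were protein-coding, so few genes of other kinds could be read. PVT1, a long noncoding RNA next to MYC, was the brightest long noncoding RNA with 2218, 1836 and 2103 at rank 451, and the microRNA gene MIR1204, which lies in the same locus, gave 193, 200 and 215 at rank 5383. A BeadChip probe reads labelled poly(A) RNA, so a value under a microRNA gene's name is not one of the mature microRNA.

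The share of protein-coding genes detected ranged from 38.8% of 848 on chromosome X and 41.6% of 1451 on chromosome 19 to 52.3% of 1066 on chromosome 3 and 53.1% of 605 on chromosome 14, against 46.0% of all.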
